A study of Mus musculus with 4 samples.

Results

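The mitochondrial ribosomal protein genes were examined in murine 4T1 breast cancer clones treated with an iron chelator. The members were all protein-coding genes of the deposited expression table whose symbol begins with Mrpl or Mrps followed by a digit, which gave 78 of the 49585 genes listed. Of these, 51 encode proteins of the large (39S) subunit of the mitochondrial ribosome, 26 encode proteins of the small (28S) subunit, and Mrps36 was assigned to neither, since its product is known as a subunit of the 2-oxoglutarate dehydrogenase complex. Mrps30 and Mrps18a keep symbols of the small subunit but encode proteins that sit in the large subunit, and were counted there. The members lie on 17 chromosomes, with 11 of them on chromosome 11. A total of 77 members had an FPKM (fragments on a gene, scaled for its exon length and for the library total) of at least 1 in at least 1 library, and these expressed members are the base of every count given for a comparison.

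RNA-seq was performed on 4T1-HM and 4T1-LM cells, which were each grown from a single cell of the murine triple-negative breast cancer line 4T1 and have high (HM) or low (LM) metastatic capacity. Each clone was cultured for 48 h with 50 μmol/L of deferasirox (DFX), an oral iron chelator, dissolved in DMSO, or with DMSO alone, and the 4 libraries are named HM_Ctrl, HM_DFX, LM_Ctrl and LM_DFX. There was 1 library per group, so no difference has a replicate check, no p-value is given, and 1 clone stands for each metastatic capacity. The 4T1-HM libraries held 16745608 fragments with DMSO and 14363066 with DFX, and the 4T1-LM libraries 15731521 and 21883854, recovered from the steps in which the FPKM of each gene moved. The epithelial markers Krt8, Krt18, Krt19, Cdh1 and Epcam were expressed in all 4 libraries as was the basal keratin Krt14, with an FPKM of 2.48 with DMSO and 1.90 with DFX in 4T1-HM, and 54.3 and 10.4 in 4T1-LM. The other basal keratin of the list, Krt5, was listed at 0 in all 4. None of the 7 immune and none of the 4 endothelial markers reached an FPKM of 1, and Pdgfra was the only fibroblast marker of 5 that did. As in any bulk sample, fewer cells that carry a transcript and less of it per cell cannot be told apart.

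Mitochondria carry their own ribosome, which translates the 13 proteins encoded by mitochondrial DNA. These proteins are core subunits of the respiratory chain and of the ATP synthase. Both ribosomal RNAs are made in the organelle, while every ribosomal protein is encoded in the nucleus, made in the cytosol and imported. Some members descend from bacterial ribosomal proteins, and others were added in the mitochondrial lineage. Residues of Mrps16, Mrps25 and Mrps18c are known to help hold iron-sulfur clusters in the mammalian small subunit.

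Promoters of mitochondrial ribosomal protein genes are often bound by the factors GABP (NRF2), NRF1 and YY1. The short core sequences of these factors were searched on both strands in 300 bases around each start site, 250 before and 50 after, taken from RefSeq on build GRCm38.p6. Of the 78 members, 69 matched a promoter in that table. The letters searched were CCGGAAG for GABP, GCATGCG for NRF1, AAGATGG for YY1 and CACGTG for the E-box bound by MYC. The GABP core ends with the letters that open the YY1 core, the NRF1 core overlaps its own reverse complement, and overlapping matches of the same core were counted as 1 place. The windows of 26 members (37.7%) held the GABP core, against 9.93% of all 27025 genes in the table and 21.8% of the 8340 expressed protein-coding genes. For the YY1 core the count was 13 members (18.8%, against 7.28% and 8.78%), for the NRF1 core 8 members (11.6%, against 4.01% and 7.87%), and for the E-box 5 members (7.25%, against 8.09% and 12.1%). A match describes letters in this window and not a bound site.

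The 250 bases before the RefSeq start are shown for the 4 members that were at least 1.5-fold higher under DFX in both clones and for Mrpl34 and Mrpl41, the members with the lowest mean log2 change of both clones, with the cores in capitals and each window in the direction of its gene. The window of Mrpl32 (chr13:14613038-14613287, minus strand) held 3 places with the NRF1 core, beginning 86, 65 and 23 bases before the start, and a YY1 core. Single NRF1 cores stood 224 bases before the start of Mrps18b (chr17:35916441-35916690, minus strand) and 27 bases before that of Mrpl9 (chr3:94443086-94443335, plus strand). The window of Mrps30 (chr13:118387253-118387502, minus strand) held none of the cores. Mrpl34 (chr8:71464676-71464925, plus strand) had a GABP core 37 bases before its start, and the window of Mrpl41 (chr2:24975099-24975348, minus strand) held none.
Mrpl32: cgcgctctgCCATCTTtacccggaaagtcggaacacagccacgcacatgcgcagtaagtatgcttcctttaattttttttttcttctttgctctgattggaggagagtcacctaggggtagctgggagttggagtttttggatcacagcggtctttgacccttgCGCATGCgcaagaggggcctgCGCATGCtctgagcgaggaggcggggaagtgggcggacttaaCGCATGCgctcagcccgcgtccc
Mrps18b: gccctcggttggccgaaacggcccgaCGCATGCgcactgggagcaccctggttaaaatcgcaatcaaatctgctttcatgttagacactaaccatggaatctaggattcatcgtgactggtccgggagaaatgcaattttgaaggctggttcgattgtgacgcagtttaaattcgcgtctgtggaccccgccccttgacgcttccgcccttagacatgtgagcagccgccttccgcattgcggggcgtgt
Mrpl9: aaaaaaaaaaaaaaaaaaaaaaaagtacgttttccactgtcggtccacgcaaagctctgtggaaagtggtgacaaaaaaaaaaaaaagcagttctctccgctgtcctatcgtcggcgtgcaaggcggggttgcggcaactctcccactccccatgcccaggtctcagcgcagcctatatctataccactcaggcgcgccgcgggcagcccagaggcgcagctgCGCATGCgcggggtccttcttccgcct
Mrps30: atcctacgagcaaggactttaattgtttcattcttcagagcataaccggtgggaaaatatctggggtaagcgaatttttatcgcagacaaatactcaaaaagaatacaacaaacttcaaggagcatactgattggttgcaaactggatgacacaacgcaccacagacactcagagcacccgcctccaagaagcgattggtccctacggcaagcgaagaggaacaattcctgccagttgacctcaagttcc
Mrpl34: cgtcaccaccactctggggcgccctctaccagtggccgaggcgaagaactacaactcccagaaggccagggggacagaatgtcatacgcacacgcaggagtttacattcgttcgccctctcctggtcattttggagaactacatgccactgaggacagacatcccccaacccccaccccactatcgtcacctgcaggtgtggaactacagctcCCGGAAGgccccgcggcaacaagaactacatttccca
Mrpl41: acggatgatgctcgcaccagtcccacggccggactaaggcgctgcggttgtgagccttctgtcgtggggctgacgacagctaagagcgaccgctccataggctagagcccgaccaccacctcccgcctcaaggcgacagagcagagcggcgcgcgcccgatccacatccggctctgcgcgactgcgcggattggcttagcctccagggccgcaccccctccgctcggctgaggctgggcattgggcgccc

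Over the full 300 bases, 3 of the 4 members at least 1.5-fold higher in both clones held an NRF1 core. A GABP core was held by 1, a YY1 core by 1 and an E-box by 0. Of the 7 members at least 1.5-fold lower in both clones, 1 held an NRF1 core, 2 a GABP core, 2 a YY1 core and 1 an E-box. Among the 69 members with a window, the NRF1 core was held by 11.6%, the GABP core by 37.7%, the YY1 core by 18.8% and the E-box by 7.25%. The members were grouped here by their DFX response and the windows were not tested against it. The NRF1 cores of Mrpl32 are the only case among the shown windows with more than 1 place for the same core.

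The levels of the members spanned a wide range in each library. Mrpl12, which forms the stalk of the large subunit, had the highest mean level, with an FPKM of 65.7 with DMSO and 45.4 with DFX in 4T1-HM, and 81.2 and 61.5 in 4T1-LM. Mrpl42, a mitochondria-specific protein of the large subunit, followed at 62.9 with DMSO and 33.2 with DFX in 4T1-HM, and 78.1 and 49.8 in 4T1-LM. The FPKM of Mrpl2, a core protein descended from bacteria, was 47.2 with DMSO and 31.9 with DFX in 4T1-HM, and 55.04 and 55.7 in 4T1-LM, and was lowest in HM_DFX. Mrps6 led the small subunit at 59.0 with DMSO and 56.2 with DFX in 4T1-HM, and 31.9 and 41.9 in 4T1-LM, and was higher in both libraries of 4T1-HM than in both of 4T1-LM. At the other end, Mrpl48 had an FPKM of 1.90 with DMSO and 1.55 with DFX in 4T1-HM, and 2.25 and 1.88 in 4T1-LM, and Mrps35 of 3.09 with DMSO and 2.50 with DFX in 4T1-HM, and 3.75 and 4.06 in 4T1-LM. For Mrpl17 and Mrps25, also among the 4 lowest, the levels are given with their DFX response. Mrpl53 was listed at 0 in all 4 libraries. In GENCODE release M21, 88.0% of its exon bases overlap the protein-coding gene Gm42688 on the same strand, whose FPKM was between 0.227 and 0.461.

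**Figure D1:**
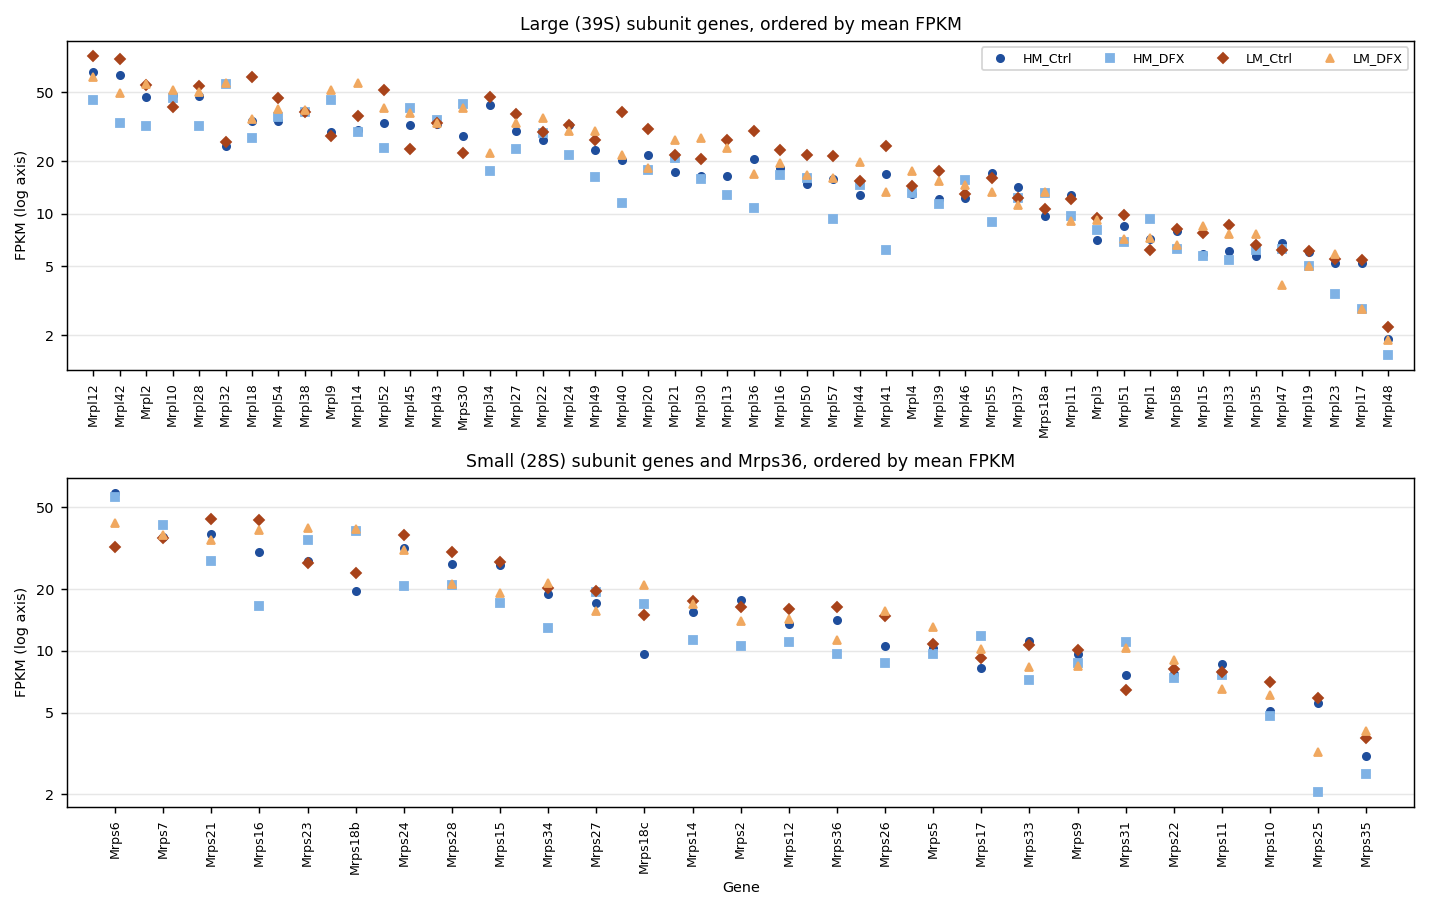
FPKM of the 77 expressed members in the 4 libraries (log axis), in order of mean FPKM, with the large subunit above and the small subunit with Mrps36 below. Each point is 1 library and carries no error bar. Mrpl12 and Mrps6 stand highest, Mrpl48 and Mrps35 lowest, and for most genes the 4 points lie close together beside the spread between genes.

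For the median member, the highest of the 4 FPKM values was 1.59 times the lowest. This ratio ran from 1.03 for Mrpl38, named here after its values were seen, to 3.96 for Mrpl41. Mrpl38 had an FPKM of 38.5 with DMSO and 38.5 with DFX in 4T1-HM, and 38.7 and 39.6 in 4T1-LM, from between 1409 and 2211 fragments. The median member rested on 425 (HM_DFX) to 819 (LM_DFX) fragments. The exon lengths used ran from 333 bases for Mrpl42 to 8631 for Mrps35. That of Mrpl42 was solved from the values as the smallest length that gave whole fragments. Its true length may be a multiple of this, with more fragments and narrower intervals than given. All members together took 0.310% of the fragments of HM_Ctrl (0.307 to 0.312, exact Clopper-Pearson 95% interval), 0.287% of HM_DFX (0.284 to 0.290), 0.352% of LM_Ctrl (0.349 to 0.355) and 0.350% of LM_DFX (0.347 to 0.352). These intervals, like all those below, cover counting error only and not variation between cultures.

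The question for the treated libraries was how iron chelation moved these genes in each clone. Changes are log2 of the ratio of FPKM + 1, which draws the changes of weakly expressed genes towards 0, and a gene was called at a change of at least 2-fold. In 4T1-HM the median log2 change of the members was −0.19, beside −0.10 over all 12669 expressed genes, with 23 members above 0 and 54 below (43.7% and 55.9% of all genes). Scaling by the median of ratios moved the median over all genes from −0.10 to 0.00, and on that scale the members had a median of −0.06, with 34 above 0 and 43 below. In 4T1-LM the median was −0.14, beside −0.04 over all genes, with 32 members above 0 and 45 below (46.8% and 52.6% of all genes), and under median-ratio scaling it was −0.08, with 35 above 0 and 42 below. The summed FPKM of the members was 1590 with DMSO and 1422 with DFX in 4T1-HM, and 1819 and 1753 in 4T1-LM, and under median-ratio scaling the sum of LM_DFX was instead above that of LM_Ctrl. The large and small subunits had similar medians, −0.16 and −0.19 in 4T1-HM and −0.14 and −0.10 in 4T1-LM. The 10 mitochondria-specific genes of the small subunit had a median of 0.08 in 4T1-LM, with 7 above 0, and of −0.14 in 4T1-HM, with 4 above 0. The epithelial markers moved with the treatment as well, since 4 of 6 expressed markers were at least 2-fold lower in 4T1-HM and 2 in 4T1-LM, where 1 was higher, and the summed FPKM of that list was 1590 with DMSO and 533 with DFX in 4T1-HM, and 2123 and 1035 in 4T1-LM. Their part in the changes of the members was not tested.

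Few members were called. At least 2-fold higher in HM_DFX than in HM_Ctrl was 1 member, Mrpl32 (6.93% of all genes were called), and at least 2-fold lower were 3 members, Mrpl41, Mrpl34 and Mrps25 (12.4% of all genes). In 4T1-LM, Mrpl32 was again the 1 member at least 2-fold higher (7.09% of all genes) and Mrpl34 the 1 member at least 2-fold lower (8.72%). The shares of members called, between 1.3% and 3.9%, were below those of all genes in each of these comparisons and directions. At 1.5-fold, 5 members were higher and 12 lower in 4T1-HM (16% and 26% of all genes), and 7 were higher and 9 lower in 4T1-LM (16.5% and 20%). The same 4 members passed 1.5-fold upwards in both clones, Mrpl32, Mrps18b, Mrpl9 and Mrps30 (9.17% of all genes did), and 7 passed it downwards in both, Mrpl34, Mrpl41, Mrps25, Mrpl36, Mrpl40, Mrpl42 and Mrpl17 (14.1%). The counting interval of the fragment ratio lay wholly above 1 for 15 members and wholly below 1 for 40 in 4T1-HM (32.3% and 43.4% of 10164 genes with whole fragments), and for 23 and 39 members in 4T1-LM (34.9% and 40.4% of 10142 genes).

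Mrpl32 was the member that was higher by the most under DFX in both clones. The gene lies at chromosome 13 from 14610301 to 14613037 of mm10, the build of all gene positions given here, and its product is a protein of the large subunit whose precursor is trimmed by the m-AAA protease of the inner membrane before it joins the ribosome. The FPKM was 24.6 with DMSO and 56.0 with DFX in 4T1-HM, and 26.0 and 56.2 in 4T1-LM. Both DFX libraries stood above both DMSO libraries, and the clones were nearly level within each treatment. The log2 change was 1.15 in 4T1-HM and 1.08 in 4T1-LM. As a ratio of fragments this was 2.27 (1.98 to 2.61) and 2.16 (1.90 to 2.47), with exact 95% intervals in parentheses here and below. The promoter window with the 3 NRF1 cores, shown above, belongs to this gene.

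The 3 paralogs of bacterial S18 were all higher with DFX than with DMSO in both clones, as were 33.5% of all genes and 23.4% of the members. Mrps18b, a small-subunit protein (chromosome 17 from 35910379 to 35916389), had an FPKM of 19.6 with DMSO and 38.5 with DFX in 4T1-HM, and 24.1 and 39.05 in 4T1-LM. Its log2 change was 0.94 in 4T1-HM and 0.68 in 4T1-LM, and it reached 2-fold in 4T1-HM under median-ratio scaling. Mrps18c, the paralog at the ancestral position in the small subunit (chromosome 5 from 100798627 to 100804471), had an FPKM of 9.66 with DMSO and 16.9 with DFX in 4T1-HM, and 15.01 and 20.9 in 4T1-LM, with log2 changes of 0.75 and 0.45. It was lower in 4T1-HM than in 4T1-LM under both treatments. Mrps18a, the paralog of the large subunit, had an FPKM of 9.76 with DMSO and 13.1 with DFX in 4T1-HM, and 10.7 and 13.3 in 4T1-LM, with log2 changes of 0.39 and 0.29. Its fragment ratios were 1.34 (1.20 to 1.501) and 1.25 (1.13 to 1.38). In M21, 23.2% of the exon bases of Mrps18c overlap the transcript Gm43511 on the same strand, and 30.5% of those of Mrps18b overlap the antisense gene Gm16279, and both partners had an FPKM of at most 0.507.

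Further members of the large subunit were higher in both clones. Mrpl9 (chromosome 3 from 94443318 to 94451130), a homolog of bacterial L9, had an FPKM of 29.6 with DMSO and 45.0 with DFX in 4T1-HM, and 27.9 and 51.7 in 4T1-LM, with log2 changes of 0.59 in 4T1-HM and 0.87 in 4T1-LM. Mrps30 (chromosome 13 from 118380110 to 118387252) had an FPKM of 28.1 with DMSO and 42.8 with DFX in 4T1-HM, and 22.3 and 40.5 in 4T1-LM, with log2 changes of 0.59 and 0.83. In both genes the levels with DFX lay above those with DMSO. They were named for large rises in both clones, and the share of all genes with such levels was not counted. Mrpl45, which helps to fix the ribosome to the inner membrane beside the exit of the growing chain, had an FPKM of 32.5 with DMSO and 40.8 with DFX in 4T1-HM, and 23.7 and 38.1 in 4T1-LM, and its log2 changes were 0.32 and 0.66. The small-subunit protein Mrps31 had an FPKM of 7.58 with DMSO and 11.02 with DFX in 4T1-HM, and 6.45 and 10.3 in 4T1-LM, with log2 changes of 0.49 and 0.60. For these genes the intervals of the fragment ratio lay above 1 in both clones, and the narrowest margin was that of Mrpl45 in 4T1-HM, 1.25 (1.16 to 1.35).

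Mrpl34 and Mrpl41 stood at the low end. Mrpl34 (chromosome 8 from 71464959 to 71465747), a homolog of bacterial L34, had an FPKM of 42.2 with DMSO and 17.7 with DFX in 4T1-HM, and 46.9 and 22.5 in 4T1-LM, with log2 changes of −1.21 in 4T1-HM and −1.03 in 4T1-LM. The fragment ratios were 0.419 (0.346 to 0.504) and 0.480 (0.413 to 0.557). Under median-ratio scaling the change in 4T1-LM was short of 2-fold. Mrpl41 (chromosome 2 from 24974117 to 24975098), a mitochondria-specific protein of the large subunit, had an FPKM of 17.0 with DMSO and 6.19 with DFX in 4T1-HM, and 24.6 and 13.3 in 4T1-LM. Its log2 changes were −1.32 and −0.83, and its fragment ratios 0.364 (0.279 to 0.470) and 0.543 (0.460 to 0.640). Only 79 fragments stood behind the value in HM_DFX, the smallest number for an expressed member.

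The genes whose products touch the iron-sulfur clusters of the small subunit did not move together. Mrps25 (chromosome 6 from 92169525 to 92184033) had an FPKM of 5.58 with DMSO and 2.05 with DFX in 4T1-HM, and 5.89 and 3.22 in 4T1-LM, with log2 changes of −1.11 in 4T1-HM and −0.71 in 4T1-LM. In M21, 69.8% of its exon bases overlap Nr2c2 on the opposite strand, whose FPKM was 5.63, 6.35, 4.52 and 4.02 in that order of libraries, so where counting ignored strand the fragments of both genes could not be told apart. Mrps16 (chromosome 14 from 20391231 to 20393555) had an FPKM of 30.2 with DMSO and 16.6 with DFX in 4T1-HM, and 43.2 and 38.8 in 4T1-LM. It was lower in HM_DFX than in the other 3 libraries, with log2 changes of −0.82 in 4T1-HM and −0.15 in 4T1-LM. The fragment ratio was 0.550 (0.445 to 0.678) in 4T1-HM, and 0.898 (0.784 to 1.03) in 4T1-LM, where the interval held 1. Mrps18c, described above, was higher in both clones.

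The other members that were at least 1.5-fold lower in both clones were all of the large subunit. Mrpl42, among the highest members, had log2 changes of −0.90 in 4T1-HM and −0.64 in 4T1-LM. Mrpl36, a homolog of the small bacterial protein L36, had an FPKM of 20.7 with DMSO and 10.8 with DFX in 4T1-HM, and 29.8 and 16.9 in 4T1-LM, and log2 changes of −0.87 and −0.78. The FPKM of Mrpl40 was 20.5 with DMSO and 11.5 with DFX in 4T1-HM, and 38.7 and 21.7 in 4T1-LM, with log2 changes of −0.79 and −0.81. Mrpl40 thus had almost the same change in both clones from unequal levels with DMSO. Mrpl17, a homolog of bacterial L17, had an FPKM of 5.23 with DMSO and 2.84 with DFX in 4T1-HM, and 5.40 and 2.82 in 4T1-LM, with log2 changes of −0.70 and −0.74, from 310 to 666 fragments.

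**Figure D2:**
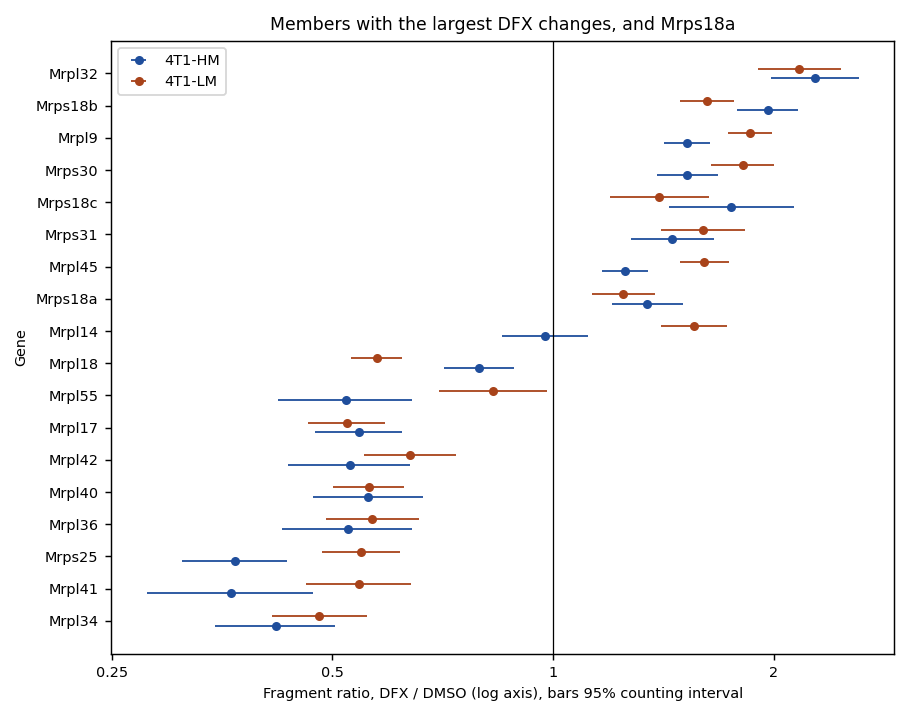
Ratio of fragments with DFX to fragments with DMSO, each per library total (log axis), for the members with the largest changes and Mrps18a. Points are 4T1-HM and 4T1-LM, bars are exact 95% counting intervals, and the vertical line marks no change. Mrpl32 lies at 2.27 and 2.16, and Mrpl34 at 0.419 and 0.480. The intervals do not overlap between the clones for 7 of the 18 genes, Mrpl14, Mrpl18, Mrpl45, Mrpl55, Mrpl9, Mrps18b and Mrps25. They do not overlap for 30 of the 77 expressed members. The share over all genes was not counted, and the bars leave out variation between cultures.

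The remaining genes named for their role stayed under 1.5-fold in both clones. The log2 changes of Mrpl12 were −0.52 in 4T1-HM and −0.40 in 4T1-LM. Mrps12, a homolog of the bacterial protein S12 of the decoding center, had an FPKM of 13.6 with DMSO and 11.05 with DFX in 4T1-HM, and 16.0 and 14.4 in 4T1-LM, with log2 changes of −0.27 and −0.15. Mrpl58, a peptidyl-tRNA hydrolase that frees chains from stalled ribosomes, had an FPKM of 7.92 with DMSO and 6.27 with DFX in 4T1-HM, and 8.13 and 6.65 in 4T1-LM, with log2 changes of −0.30 and −0.25. The fragment ratio of Mrps12 in 4T1-LM, 0.897 (0.760 to 1.06), had an interval that held 1. Mrps36 had an FPKM of 14.2 with DMSO and 9.67 with DFX in 4T1-HM, and 16.4 and 11.3 in 4T1-LM, with log2 changes of −0.51 and −0.50, nearly the same in both clones. The lowest members by level had log2 changes of −0.19 and −0.17 for Mrpl48 and of −0.22 and 0.092 for Mrps35, which the pseudocount draws towards 0.

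The DFX changes of both clones, which share no library, had the same direction in 58 of 77 members (75.3%), close to the share over all genes (75.9%). Of the 77 members, 40 were below 0 in both clones (51.9%, against 42.4% of all genes) and 18 were above 0 in both (23.4%, against 33.5%). Over the 77 members Pearson's r between the log2 changes was 0.80 and Spearman's rho 0.74, and over all expressed genes they were 0.72 and 0.70. These are correlations across genes, which are not independent replicates, and the points share the libraries and their totals.

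**Figure D3:**
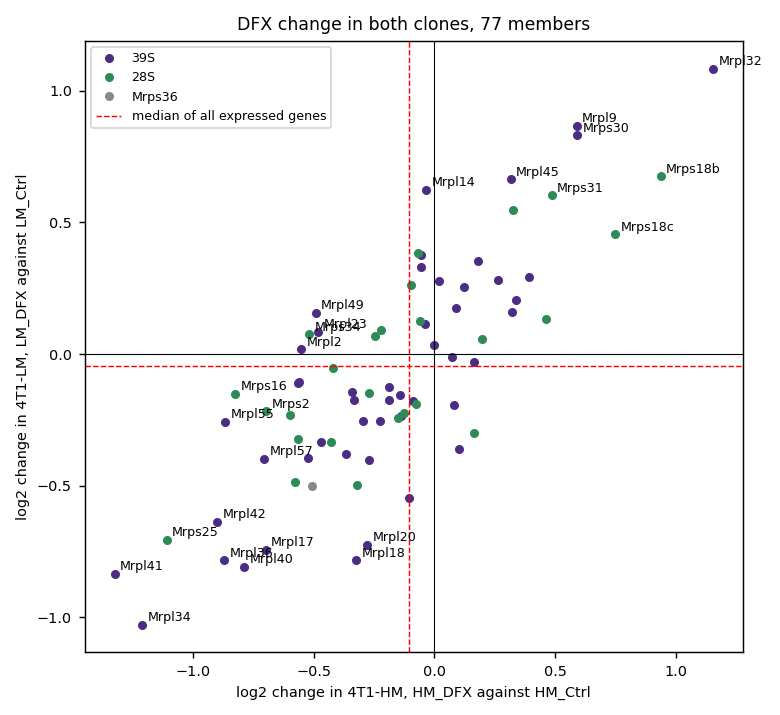
Log2 change under DFX in 4T1-HM (horizontal axis) and in 4T1-LM (vertical axis) for the 77 expressed members, colored by subunit, with dashed lines at the median of all expressed genes. Mrpl32 lies alone at the upper right, Mrpl34 and Mrpl41 lie at the lower left, and Mrpl49 and Mrpl14 lie off the diagonal.

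The change in 4T1-HM minus the change in 4T1-LM had a median of −0.12 on the log2 scale (−0.06 under median-ratio scaling), beside −0.08 over all genes, with 28 members above 0 and 49 below (43.5% and 56.5% of all genes), and no member reached 2-fold in this difference (3.52% of all genes did upwards and 5.38% downwards). At 1.5-fold, 5 members were lower and none higher (16.4% and 9.77% of all genes). The most negative values were those of Mrps16 at −0.67, Mrpl14 at −0.66, Mrpl49 at −0.65 and Mrpl55 at −0.61. Mrpl14, a homolog of bacterial L14, had an FPKM of 30.3 with DMSO and 29.6 with DFX in 4T1-HM, and 36.6 and 56.9 in 4T1-LM, and stood highest in LM_DFX. Its log2 change was −0.036 in 4T1-HM and 0.62 in 4T1-LM, and the value for 4T1-HM was slightly above 0 under median-ratio scaling. For Mrpl49, a mitochondria-specific protein of the large subunit, the FPKM was 23.4 with DMSO and 16.3 with DFX in 4T1-HM, and 26.6 and 29.8 in 4T1-LM. Mrpl55 had an FPKM of 17.2 with DMSO and 8.95 with DFX in 4T1-HM, and 16.1 and 13.3 in 4T1-LM, with log2 changes of −0.87 and −0.26, so that HM_DFX alone stood apart.

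In the other direction the largest values were those of Mrps27 at 0.47, Mrpl50 at 0.46, Mrpl18 at 0.46 and Mrpl20 at 0.45. Mrps27, a protein of the small subunit with pentatricopeptide repeats, had an FPKM of 17.2 with DMSO and 19.4 with DFX in 4T1-HM, and 19.5 and 15.7 in 4T1-LM. Mrpl50 had an FPKM of 14.9 with DMSO and 16.0 with DFX in 4T1-HM, and 21.7 and 16.7 in 4T1-LM. In both genes LM_DFX was below LM_Ctrl while the interval of the fragment ratio in 4T1-HM held 1, at 1.13 (0.998 to 1.28) for Mrps27 and 1.08 (0.951 to 1.22) for Mrpl50. Mrpl18, a homolog of the bacterial protein L18 that binds 5S rRNA, had an FPKM of 34.2 with DMSO and 27.1 with DFX in 4T1-HM, and 61.1 and 35.1 in 4T1-LM. Mrpl20 had an FPKM of 21.8 with DMSO and 17.8 with DFX in 4T1-HM, and 30.9 and 18.3 in 4T1-LM. Both were lower with DFX in either clone, with log2 changes of −0.32 and −0.78 for Mrpl18 and −0.28 and −0.72 for Mrpl20, and both had a high level in LM_Ctrl alone.

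The clones themselves were then compared with DMSO alone. The members were mostly lower in 4T1-HM than in 4T1-LM. The median log2 difference, HM_Ctrl against LM_Ctrl, was −0.18, beside 0.01 over all genes, with 17 members above 0 and 60 below (51.4% and 48.2% of all genes). No member was at least 2-fold higher or lower (3.65% and 3.15% of all genes). At 1.5-fold, 1 member was higher, Mrps6, and 5 were lower (10.5% and 8.7% of all genes). The counting interval of the fragment ratio lay wholly below 1 for 38 members and wholly above 1 for 7 (29.5% and 33.1% of 10166 genes). Of 6 expressed epithelial markers, 5 were below 0 with DMSO and all 6 with DFX (48.2% and 54.2% of all genes), with medians of −0.17 and −0.84. With DMSO, Krt14 was at −3.99, Krt8 at −0.70 and Krt18 at −0.27, with Krt19 above at 1.10. Cdh1 at −0.07 and Epcam at −0.05 were close to no difference. The part of these markers in the difference of the members was not tested. All 4 classes had a median below 0, from −0.18 for the genes of bacterial origin in the large subunit to −0.09 for the mitochondria-specific genes of the small subunit.

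Mrps6 (chromosome 16 from 92058270 to 92112227) was the 1 member well above the rest, with a log2 difference of 0.86 and a fragment ratio of 1.85 (1.66 to 2.05). In M21, 19.9% of its exon bases are shared with the protein-coding gene Gm49711 on the same strand, for which no FPKM was found. Slc5a3 on the same strand, a gene for a myo-inositol transporter, shares 10.4%. The FPKM of Slc5a3 was 24.4 with DMSO and 3.09 with DFX in 4T1-HM, and 5.69 and 1.93 in 4T1-LM. The exon length used for Mrps6, 1053 bases, was solved from the values and not taken from M21. These shares may therefore not hold in the annotation that was counted. The part of these overlaps in the value of Mrps6 was not tested. The next members were Mrpl45 at 0.44, Mrps30 at 0.32 and Mrpl10 at 0.23. Mrpl10, a protein at the base of the stalk, had an FPKM of 48.2 with DMSO and 46.3 with DFX in 4T1-HM, and 40.9 and 51.8 in 4T1-LM.

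At the low end stood Mrpl40 at −0.88, Mrpl18 at −0.82, Mrpl13 at −0.65 and Mrpl52 at −0.62. Mrpl13, a homolog of bacterial L13, had an FPKM of 16.5 with DMSO and 12.8 with DFX in 4T1-HM, and 26.5 and 23.9 in 4T1-LM, from 1458 to 4143 fragments. Mrpl52, a mitochondria-specific protein, had an FPKM of 33.4 with DMSO and 23.9 with DFX in 4T1-HM, and 51.8 and 40.9 in 4T1-LM. In both genes the pair of 4T1-LM libraries lay above the pair of 4T1-HM libraries. The fragment ratio of HM_Ctrl to LM_Ctrl was 0.530 (0.469 to 0.599) for Mrpl40 and 0.622 (0.589 to 0.656) for Mrpl13.

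With DFX the clones differed in the same direction. The median log2 difference, HM_DFX against LM_DFX, was −0.28, beside −0.05 over all genes, again with 17 members above 0 and 60 below (45% and 54.2% of all genes), and with 54 below under median-ratio scaling. At least 2-fold lower was 1 member, Mrps16 (5.05% of all genes), and none was at least 2-fold higher (3.31%). At 1.5-fold, 15 members were lower and none higher (14.6% and 9.95% of all genes). The log2 difference was −1.18 for Mrps16, −0.99 for Mrpl41, −0.92 for Mrpl14 and −0.86 for Mrpl40. The fragment ratio was 0.428 (0.351 to 0.519) for Mrps16 and 0.465 (0.357 to 0.600) for Mrpl41. On the higher side, the log2 difference was 0.56 for Mrpl47, 0.41 for Mrps6, 0.33 for Mrpl1 and 0.29 for Mrps27. Mrpl47, a homolog of bacterial L29, had an FPKM of 6.78 with DMSO and 6.24 with DFX in 4T1-HM, and 6.16 and 3.90 in 4T1-LM, and LM_DFX stood below the other libraries. Mrpl1, which belongs to the L1 stalk, had an FPKM of 7.20 with DMSO and 9.37 with DFX in 4T1-HM, and 6.17 and 7.28 in 4T1-LM, highest in HM_DFX.

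The comparison of the clones with DMSO and that with DFX share no library. A total of 53 members were below 0 in both (68.8%, against 33.2% of all genes) and 10 were above 0 in both (13%, against 30.1%). Mrpl13, Mrpl40 and Mrpl52 were at least 1.5-fold lower in 4T1-HM in both comparisons (4.02% of all genes were), and no member was at least 1.5-fold higher in both (3.09%). Pearson's r between the log2 differences was 0.60 over the 77 members and 0.45 over all expressed genes. The larger share of members below 0 is a description of these 4 libraries, and whether it would return in other cultures of the clones was not tested.

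**Figure D4:**
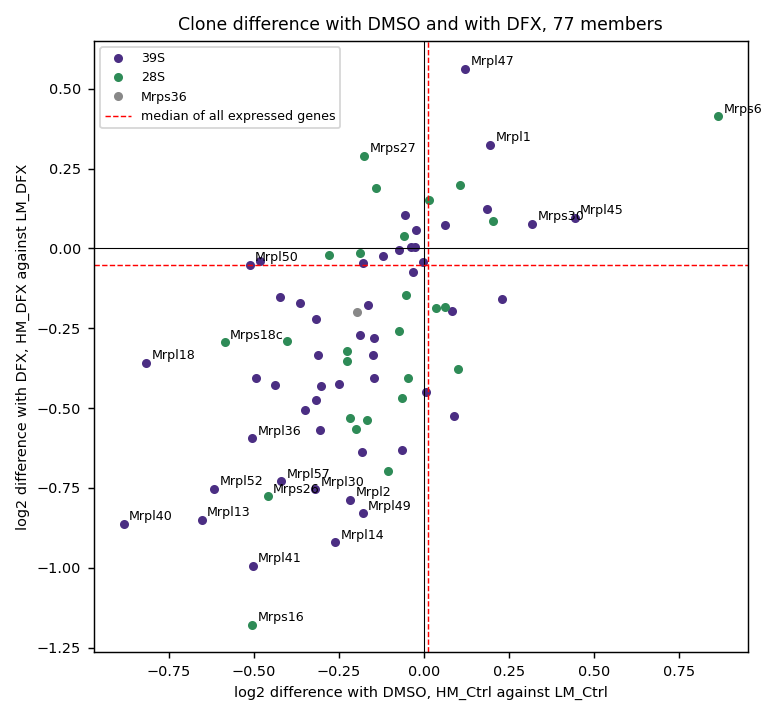
Log2 difference between 4T1-HM and 4T1-LM with DMSO (horizontal axis) and with DFX (vertical axis) for the 77 expressed members, colored by subunit, with dashed lines at the median of all expressed genes. Of the points, 53 lie in the lower left quadrant, where 4T1-HM is lower under both treatments. Mrps6 lies far to the right and Mrps16 lowest.

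Genes that work with the mitochondrial ribosome were compared with the members under DFX. The 5 ribosomal proteins with other names, Dap3, Ptcd3, Chchd1, Aurkaip1 and Gadd45gip1, were all below 0 in both clones (42.4% of all genes). Under median-ratio scaling, however, Ptcd3 in 4T1-HM was above 0. The medians of these 5 were −0.45 in 4T1-HM and −0.29 in 4T1-LM, and none reached 1.5-fold. Chchd1 had an FPKM of 67.9 with DMSO and 49.3 with DFX in 4T1-HM, and 92.5 and 62.0 in 4T1-LM. The log2 changes in 4T1-HM and 4T1-LM were −0.52 and −0.22 for Dap3, a GTP-binding protein of the small subunit, −0.54 and −0.29 for Aurkaip1, −0.23 and −0.57 for Gadd45gip1, and −0.02 and −0.21 for Ptcd3. Ptcd3 in 4T1-HM was thus close to no change. Among the genes that charge mitochondrial tRNAs, Aars2 and Pars2 were at least 2-fold lower in both clones and Iars2 in 4T1-HM, and none was at least 2-fold higher in either. Of all genes, 12.4% in 4T1-HM and 8.72% in 4T1-LM were at least 2-fold lower, and 6.93% and 7.09% at least 2-fold higher. Aars2, the alanyl-tRNA synthetase, had an FPKM of 5.99 with DMSO and 2.08 with DFX in 4T1-HM, and 9.49 and 2.42 in 4T1-LM. In 4T1-HM and 4T1-LM the log2 changes were −1.22 and −1.01 for Pars2 and −1.10 and −0.59 for Iars2. Lars2, the leucyl-tRNA synthetase, went the other way, with log2 changes of 0.99 and 0.82.

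Of 15 translation factors none reached 2-fold in either clone, and the initiation factor Mtif2 came closest at a log2 change of −0.99 in 4T1-HM, followed by Guf1 at −0.79. Of 25 expressed genes for ribosome assembly and rRNA modification, Mpv17l2, Gtpbp10 and Ngrn were at least 2-fold lower in 4T1-HM and Gtpbp10 in 4T1-LM. Of all genes, 12.4% and 8.72% were. The log2 changes were −1.15 and −0.49 for Mpv17l2 and −1.01 and −0.35 for Ngrn. Gtpbp10, a GTPase of large-subunit assembly, had an FPKM of 3.87 with DMSO and 1.26 with DFX in 4T1-HM, and 3.86 and 1.32 in 4T1-LM. Of 8 genes that copy or transcribe mitochondrial DNA, the elongation factor Tefm was at least 2-fold lower in 4T1-HM (12.4% of all genes) and the helicase Twnk in 4T1-LM (8.72%). Tefm had log2 changes of −1.03 and −0.59, while Twnk had 0.15 and −1.01. Of 10 expressed regulators of the mitochondrial gene program, Lonp1, a matrix protease, was at least 2-fold higher in both clones (6.93% of all genes in 4T1-HM and 7.09% in 4T1-LM). The FPKM of Lonp1 was 82.6 with DMSO and 223 with DFX in 4T1-HM, and 70.5 and 309 in 4T1-LM. Myc followed, with log2 changes of 0.95 and 0.93, and Yy1 with 0.91 and 0.42.

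The 13 mRNAs that these ribosomes translate had a median log2 change of −0.71 in 4T1-HM and −0.97 in 4T1-LM. At least 2-fold lower were 3 of them in 4T1-HM and 6 in 4T1-LM (12.4% and 8.72% of all genes). None was at least 2-fold higher (6.93% and 7.09%). Those called in 4T1-HM were mt-Atp8 at −1.67, mt-Nd6 at −1.58 and mt-Nd5 at −1.06, and the first pair were also the lowest in 4T1-LM, at −2.05 and −2.00. mt-Atp8 rested on only 26 and 5 fragments in 4T1-HM and 19 and 3 in 4T1-LM, with fragment ratios of 0.224 (0.0672 to 0.593) and 0.114 (0.0215 to 0.386). The median of the members, at −0.19 and −0.14, thus stood nearer to 0 than that of the organelle transcripts in both clones. Single transcripts differed, and mt-Co1, with the most fragments, had log2 changes of −0.26 in 4T1-HM and −0.03 in 4T1-LM. On few fragments, mt-Nd4l had 0.049 and 0.70, and mt-Nd3 −0.044 and 0.43. The FPKM of mt-Atp6, mt-Atp8, mt-Co2, mt-Co3, mt-Nd3 and mt-Nd4l lay between 0.672 and 53.3 over the 4 libraries, beside 3902 to 5098 for mt-Co1. The median and the calls weigh all 13 mRNAs alike, and the cause of this spread was not tested. Mitochondrial transcripts carry short poly(A) tails, and the labels name both poly(A) selection and depletion of ribosomal RNA. Only changes, and not levels, are therefore set beside those of nuclear genes here.

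**Figure D5:**
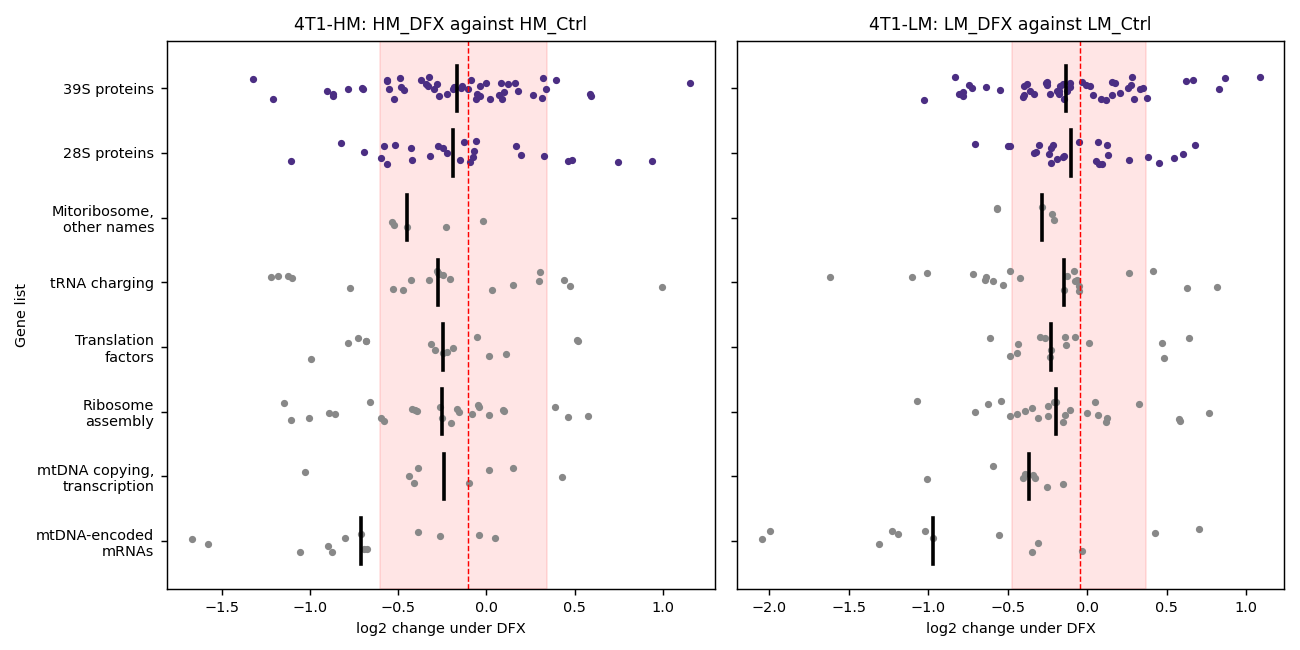
Log2 change under DFX in 4T1-HM (left) and 4T1-LM (right) for the expressed genes of each list, with 1 point per gene and a bar at the median of the list. The dashed line is the median of all expressed genes and the shaded band runs between their quartiles. The medians of both subunits lie inside the band, and that of the 13 mitochondrially encoded mRNAs, at −0.71 and −0.97, lies to the left of it.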

How the data were processed

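RNA was sequenced from 4 cultures, 1 library for each of HM_Ctrl, HM_DFX, LM_Ctrl and LM_DFX, grouped by their labels. The submitters' processing notes name FastQC, Trimmomatic, HISAT2, featureCounts and build mm10. Their versions and the use of strand in counting are not given in the sources used here, so overlapping genes on opposite strands may share fragments. The authors deposited FPKM per gene, scaled for exon length and library total, with no pooling. Whole fragments were recovered from the FPKM with GENCODE release M21 exon lengths for 64 members and a length solved from the values for 14. They lay within 0.02 and 0.005 of a whole number, and served for depth and for exact Clopper-Pearson 95% intervals of counting error. A solved length was the smallest that fitted, so the fragments of these 14 members may be too few and their intervals too wide.

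Changes were log2 of the ratio of FPKM + 1 in genes that reached an FPKM of 1 in at least 1 library, called at 2-fold, with 1.5-fold as a second threshold (Python 3.11.15, numpy 2.4.6, pandas 2.3.3, scipy 1.17.1). No test was made, since each group held 1 library. The calls and intervals were run on simulated counts that held counting error only, with changes larger than the threshold placed in well-expressed genes. This checked the computation and says nothing of variation between cultures or of weakly expressed genes. The members and the gene lists, written from general knowledge, were chosen with earlier results of these data known. Members named are the 6 largest changes each way under DFX in each clone, the 4 largest each way between clones and in the difference of the responses, the 4 highest and 4 lowest by mean FPKM, the Mrps18 paralogs, the iron-sulfur contacts, Mrpl12, Mrps12, Mrpl58, Mrps30 and Mrps36. Of the related lists, genes past 2-fold under DFX and a few closest to it are named, though not every such gene is reported here. Other settings tried were 0.1 as pseudocount, all genes without a filter, a filter on the mean FPKM, median-ratio and 75th percentile scaling, the 1.5-fold threshold, recovered fragments without a pseudocount and, chosen after seeing the data, leaving out the members that share over 20% of their exon bases with another gene.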

Additional observations from a re-analysis of the deposited data

Results flagged for a closer look

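Mrpl49 lay on opposite sides of no change in the clones, with counting intervals that left out 1 in both. The ratio of its fragments with DFX to those with DMSO was 0.699 in 4T1-HM (0.616 to 0.792), from 404 and 674 fragments, and 1.12 in 4T1-LM (1.02 to 1.23), from 1123 and 721 fragments. With 1 library in each group this difference was not tested. In M21, 4.85% of the exon bases of Mrpl49 overlap Syvn1 on the opposite strand, whose FPKM was 14.1 with DMSO and 35.9 with DFX in 4T1-HM, and 9.87 and 17.0 in 4T1-LM, and the part of this overlap was not tested.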

How the results depend on the processing

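No paired analysis was possible because each group held 1 library and the labels carry no replicate numbers, and no library could be left out for the same reason. The threshold moved the counts of members most. At 1.5-fold in place of 2-fold there were 5 higher and 12 lower in HM_DFX against HM_Ctrl, 7 and 9 in LM_DFX against LM_Ctrl, 1 and 5 in HM_Ctrl against LM_Ctrl, 15 lower in HM_DFX against LM_DFX and 5 lower in the difference of the responses. With a pseudocount of 0.1, 2 members were at least 2-fold lower in HM_DFX against LM_DFX. Median-ratio scaling gave 2 members at least 2-fold higher in HM_DFX against HM_Ctrl and 0 at least 2-fold lower in LM_DFX against LM_Ctrl. The summed FPKM of the members became 1513 with DMSO and 1487 with DFX in 4T1-HM, and 1757 and 1780 in 4T1-LM, under median-ratio scaling, and 1608, 1441, 1799 and 1729.8 in the same order under scaling to the 75th percentile. The direction of the summed FPKM in 4T1-LM under DFX thus depended on the scaling chosen. Why the counts and sums moved was not tested. Median-ratio scaling also moved the median log2 change of the members by over 1.5 times under DFX. It became −0.06 in 4T1-HM, −0.08 in 4T1-LM and −0.06 for their difference. Recomputed medians and counts were labeled as stayed within 1.5 times or, for medians, within the counting half-width of a single member. That half-width does not measure a shift of a whole library. By this rule 89 stayed, these medians among them, and 19 moved. Of the values of single named members 1034 stayed and 10 moved, none of them turning its direction among called values. Depth limits the smaller differences, since the median half-width of the counting interval of a member was 0.18 on the log2 scale in 4T1-HM and 0.15 in 4T1-LM.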
